A study of Homo sapiens with 10 samples.

Results

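The 26S proteasome is the ATP-driven protease that degrades ubiquitin-tagged proteins in the cytosol and nucleus. Its barrel, the 20S core, is made of outer alpha rings and inner beta rings that hold the protease sites, and 19S caps bind ubiquitin chains, remove them and unfold the substrate. Dedicated chaperones, which are not part of the finished particle, help to build the core and the caps. The genes were picked by symbol from the array's probe annotation: every symbol that begins with PSMA, PSMB, PSMC, PSMD or PSMG and a digit, without the immunoproteasome genes PSMB8, PSMB9 and PSMB10, together with PSME3, PSME4, PSMF1, ADRM1 and POMP. That rule took 46 of the 17492 named genes, each with 1 probe set among 18569. Of these, 42 encode proteasome subunits, assembly chaperones or regulators, and 4 carry the letters without being such genes (PSMC3IP, PSMA3-AS1, PSMB8-AS1 and PSMG3-AS1) and are given apart. The subunits PSMC5, PSMD7 and PSMD13 were not analysed here.

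Total RNA of A375, an established human melanoma line, was hybridised to Clariom S human arrays. The doxycycline group (5 arrays) holds cells grown with 2 µg/ml of doxycycline from plating until freezing on day 4, and the control group (5 arrays) holds cells grown without it for the same time. The series title names Omomyc, a mutant MYC domain that pairs with MYC and MAX and competes with them for DNA. The labels describe neither the construct nor its promoter, do not say whether the cells are 1 clone, and name no doxycycline-treated cells without Omomyc, so an effect of doxycycline itself and one of Omomyc cannot be told apart here. Labels call the arrays biological replicas without saying that they came from separate cultures, so the p-values reflect the spread of these arrays only, and that spread could be technical.

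Values are log2 units of signal after RMA, and fold changes are doxycycline over control with their standard error. A gene was called at a Benjamini-Hochberg adjusted p under 0.05 in limma, adjusted over all 18569 probe sets. Median signal was 5.02 to 5.05 on the doxycycline arrays and 5.04 to 5.10 on the control arrays. Doxycycline array 1 had the highest first quartile of signal (2.94, against 2.80 to 2.87 on the other 9 arrays) and the lowest weight when limma weighted the arrays (0.39). Of 7 measured markers of the melanocyte lineage, SOX10 averaged 8.91 units in doxycycline cells and 8.71 in control cells, and MITF 8.33 and 7.12, whereas the pigment genes PMEL, MLANA and TYR averaged less than any array's first quartile in both groups. In this list 4 of 7 were called higher (MITF, TYR, S100B and S100A1), against 20.9% of all probe sets. SOX10 did not pass (adjusted p = 0.102 in limma). The mean level of the 7 was 5.56 to 5.70 units on doxycycline arrays and 5.19 to 5.25 on control arrays. Markers of other cell types were also read. Among 4 leukocyte markers, LYZ and CD14 were higher with doxycycline and PTPRC, a marker of leukocytes in general, and CD3E, a marker of T cells, were below that quartile in both groups. The list's mean level was 3.97 to 4.27 units on doxycycline arrays and 3.49 to 3.78 on control arrays. Of 5 fibroblast markers 4 were higher (80%, against 20.9% of all probe sets), with mean levels of 4.78 to 4.96 units against 4.02 to 4.18 in control. Keratinocyte markers (1 of 3 higher) averaged 2.66 to 2.92 against 2.48 to 2.85 in control, and endothelial markers (0 of 3 called, at adjusted p values of 0.0666 to 0.785 in limma, with CDH5 at an unadjusted p of 0.0268) averaged 2.50 to 3.05 against 2.54 to 2.73 in control. The part of these shifts in the proteasome results was not tested.

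Proteasome genes were lower in doxycycline-treated cells, and the 2 largest falls were in the assembly chaperone genes PSMG1 and PSMG3. Of the 42 genes 23 fell and 2 rose, PSMD5 and PSME4, while 17 did not pass the test. Over all probe sets 17.2% were called lower and 20.9% higher, so 54.8% of these genes against 17.2% of the array were lower, and 4.76% against 20.9% were higher. The median log2 fold change was -0.24 over the 42 genes and 0.04 over all probe sets. Fold changes were small in the particle itself, where the 31 subunits of the core and caps that the symbol rule takes spanned -0.74 to 0.13. SEM1, a lid subunit outside the rule, was higher by 0.52 log2 units. The chaperone gene PSMG1 fell 6.31-fold and PSMG3 fell 2.22-fold.

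**Figure D1:**
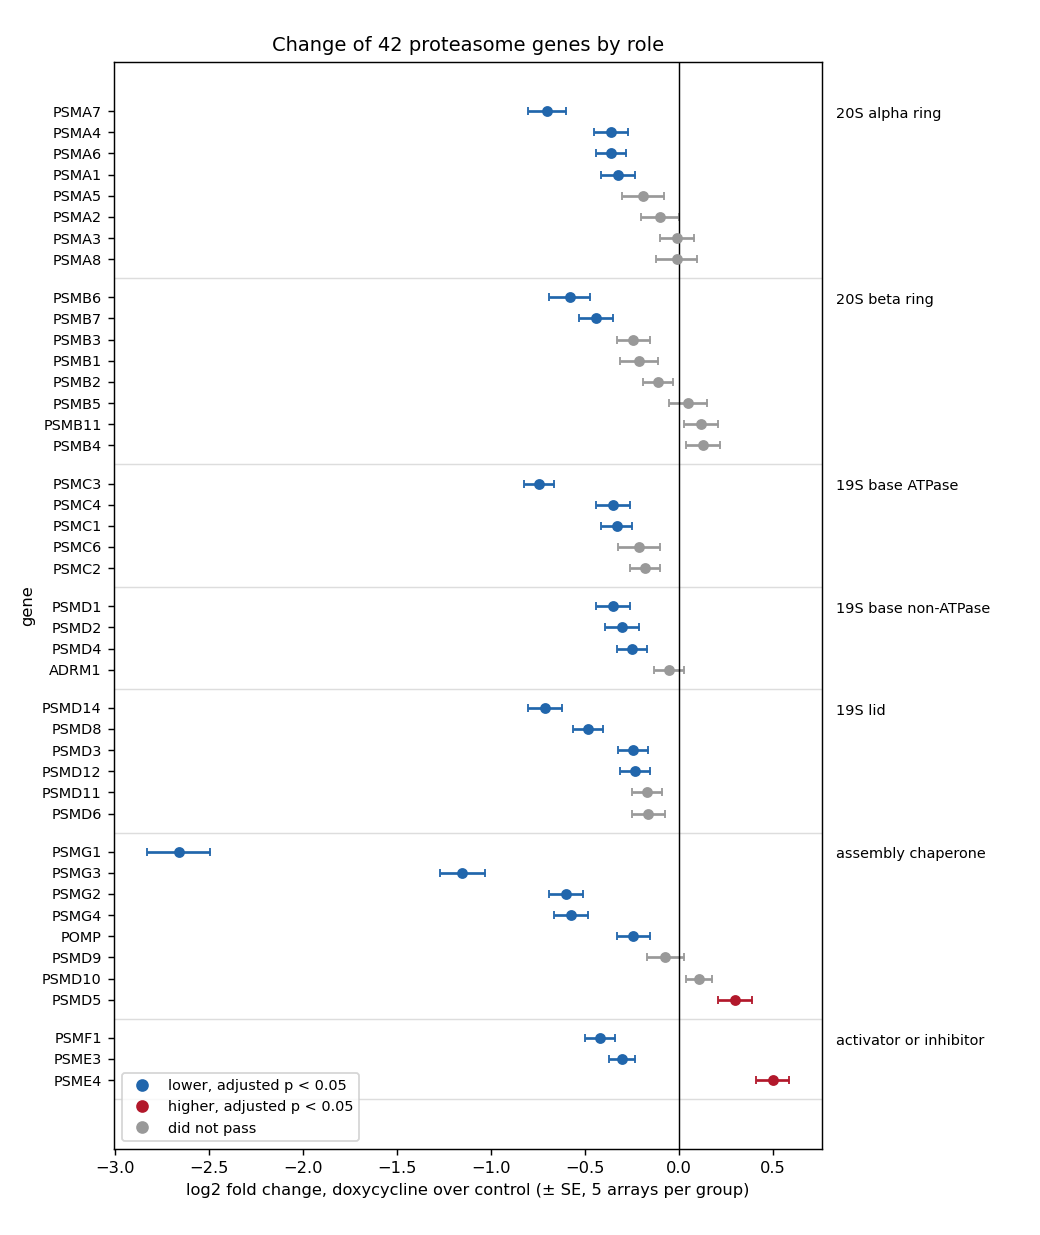
Log2 fold change of doxycycline over control (horizontal axis) with its standard error for 42 proteasome genes, sorted within their role, 5 arrays per group. Blue points passed the test as lower (23 genes), red points as higher (2 genes), and grey points did not pass (17 genes); PSMG1 at -2.66 and PSMG3 at -1.15 lie far to the left of the rest.

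Proteasome genes are brightly expressed, and called changes are more frequent among bright probe sets. Among probe sets at or above the median signal 25.2% were called lower and 29.0% higher. At that signal stood 39 of the 42 genes, of which 22 fell (56.4%) and 2 rose (5.13%). PSMA8, an alpha subunit of the testis, had mean signals of 1.73 units with doxycycline and 1.74 in control, and PSMB11, the beta subunit of the thymus, had 2.66 and 2.54, both under the first quartile of every array. The third gene under the median was PSMG1, with 3.44 units in doxycycline cells and 6.10 in control cells. All 5 doxycycline arrays lay below all 5 control arrays for 19 of the 42 genes, against 13.6% of all probe sets. Falls of 1 log2 unit or more were seen in 2 of the 42 genes and in 4.04% of all probe sets, which is a share near the background.

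**Figure D2:**
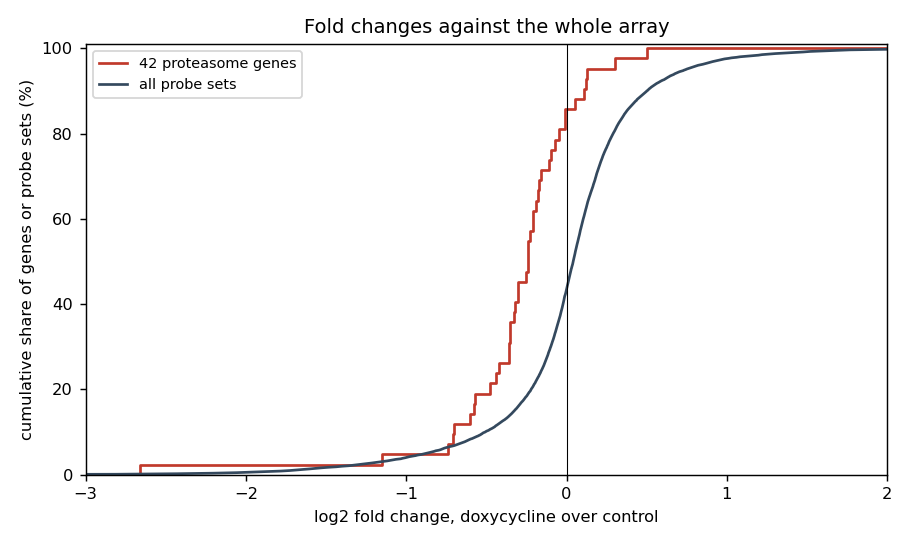
Cumulative share (vertical axis, percent) of the 42 proteasome genes and of all 18569 probe sets below a given log2 fold change of doxycycline over control (horizontal axis). The proteasome curve lies to the left of the whole array from -0.70 upward, with medians of -0.24 and 0.04.

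RNA of whole samples was measured, so fewer cells with a transcript and less of it per cell cannot be told apart. Because MYC and MAX bind the E-box, and NFE2L1, the factor that raises proteasome gene transcription when the protease is overloaded, binds the antioxidant response element, the promoters of genes the results turn on are shown with those letters marked. They are RefSeq sequences of GRCh38.p14, from 250 bases before to 50 bases after a gene's annotated start, on the gene's strand. Capitals mark matches on either strand to CACGTG (E-box), TGACNNNGC (antioxidant response element), CCAAT (NF-Y) or TGAGTCA (AP-1). Shown are 3 chaperone genes that fell, the ATPase gene PSMC3, which fell most among the subunits, PSME3, which fell and holds an E-box, and PSME4, which rose.
PSMG1, chr21:39183402-39183701, minus strand: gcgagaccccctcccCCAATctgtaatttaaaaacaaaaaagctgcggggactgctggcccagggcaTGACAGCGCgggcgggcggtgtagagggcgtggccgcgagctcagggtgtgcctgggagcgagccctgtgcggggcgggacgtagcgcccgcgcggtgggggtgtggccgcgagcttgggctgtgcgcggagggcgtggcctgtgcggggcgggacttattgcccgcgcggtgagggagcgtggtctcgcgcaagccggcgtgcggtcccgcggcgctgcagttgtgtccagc
PSMG2, first of its annotated starts, chr18:12658488-12658787, plus strand: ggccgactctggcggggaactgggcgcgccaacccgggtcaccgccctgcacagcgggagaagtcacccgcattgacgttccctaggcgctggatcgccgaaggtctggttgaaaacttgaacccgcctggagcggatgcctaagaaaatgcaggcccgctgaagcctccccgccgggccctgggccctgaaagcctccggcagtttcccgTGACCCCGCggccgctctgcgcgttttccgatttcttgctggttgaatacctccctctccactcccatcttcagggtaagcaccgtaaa
PSMG4, chr6:3258697-3258996, plus strand: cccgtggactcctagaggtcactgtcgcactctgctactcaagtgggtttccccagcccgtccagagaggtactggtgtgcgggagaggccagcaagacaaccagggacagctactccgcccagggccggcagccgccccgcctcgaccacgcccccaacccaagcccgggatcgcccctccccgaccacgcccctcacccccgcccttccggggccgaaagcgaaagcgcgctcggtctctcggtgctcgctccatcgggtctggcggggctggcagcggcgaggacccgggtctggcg
PSMC3, chr11:47426390-47426689, minus strand: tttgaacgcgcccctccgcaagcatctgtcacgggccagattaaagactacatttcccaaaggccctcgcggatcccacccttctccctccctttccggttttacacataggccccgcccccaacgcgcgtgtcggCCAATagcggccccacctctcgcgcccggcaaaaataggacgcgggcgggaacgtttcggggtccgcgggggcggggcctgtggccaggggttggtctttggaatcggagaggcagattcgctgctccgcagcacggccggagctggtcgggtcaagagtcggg
PSME3, chr17:42833147-42833446, plus strand: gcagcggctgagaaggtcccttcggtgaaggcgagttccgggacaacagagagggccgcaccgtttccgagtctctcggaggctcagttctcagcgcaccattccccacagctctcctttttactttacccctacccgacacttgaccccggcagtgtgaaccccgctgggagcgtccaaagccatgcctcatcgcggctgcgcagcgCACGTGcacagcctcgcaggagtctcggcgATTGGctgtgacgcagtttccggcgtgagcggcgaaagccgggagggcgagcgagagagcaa
PSME4, chr2:53970944-53971243, minus strand: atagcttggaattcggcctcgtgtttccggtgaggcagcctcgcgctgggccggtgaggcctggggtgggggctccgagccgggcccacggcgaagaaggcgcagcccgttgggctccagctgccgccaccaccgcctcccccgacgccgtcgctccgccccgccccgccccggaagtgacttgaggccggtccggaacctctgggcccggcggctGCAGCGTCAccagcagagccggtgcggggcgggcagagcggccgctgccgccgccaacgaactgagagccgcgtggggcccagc

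In these windows the antioxidant response element stood 183 bases before the start of PSMG1, 39 bases before PSMG2 and 34 bases before PSME4, that is, in genes that fell and in the gene that rose. The window at the other annotated start of PSMG2 and the PSMG4 window held none of the 4 motifs. No window was listed for PSMG3, PSMA7, PSMB6, PSMB7 and PSMD4, which fell, nor for PSMB1, so the shares below leave these genes out. Over the 44 windows listed for 36 of the 42 genes, CACGTG was found in 3 (6.82%), those of PSMB3, PSMD9 and PSME3, against 7.26% of all 35116 windows. TGACNNNGC was found in 13 (29.5%) against 13.3% of all windows. These lay in 12 genes, of which 7 fell and 2 rose. Over all 42 genes 23 fell and 2 rose, but that count includes the genes named above that fell and had no window. The counts are therefore not like for like. CCAAT was found in 19 windows (43.2%) against 34.6%, and TGAGTCA in 2 (4.55%) against 4.95%. Of the 3 genes with an E-box match, PSME3 fell, PSMB3 missed the threshold and PSMD9 did not pass. A match is a run of letters, and binding was not measured.

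Of the 8 assembly chaperone genes 5 fell (62.5%) and 1 rose (12.5%), against 17.2% and 20.9% of all probe sets. The 2 largest falls of the 42 genes were those of PSMG1 and PSMG3, chaperones of the 20S core. The subunits PSMC3, PSMD14 and PSMA7 fell more than the other core chaperones, PSMG2, PSMG4 and POMP. PSMG1 and PSMG2 form a dimer that guides alpha ring formation. PSMG1 read 3.35, 3.37, 3.74, 3.62 and 3.14 log2 units on doxycycline arrays 1 to 5, against 6.12, 6.22, 6.28, 6.46 and 5.41 on control arrays 1 to 5. The groups were well apart even at control array 5, the lowest control (log2 fold change -2.66 ± 0.17, adjusted p = 1.13e-08 in limma). Its partner PSMG2 read 7.74, 7.49, 7.67, 7.29 and 7.62 with doxycycline, against 8.26, 8.12, 8.21, 8.19 and 8.03 in control. Here too no array overlapped with the other group, at a smaller difference (-0.60 ± 0.09, adjusted p = 1.12e-04 in limma).

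PSMG3 and PSMG4 form the other chaperone dimer of the alpha ring. PSMG3 read 7.16, 6.82, 6.60, 6.84 and 6.47 with doxycycline, against 7.95, 7.96, 8.08, 7.74 and 7.89 in control (-1.15 ± 0.12, adjusted p = 1.80e-06 in limma). Doxycycline array 1 was the highest of its group and still below every control. PSMG4 read 6.28, 6.14, 6.01, 6.26 and 6.18 with doxycycline, against 6.81, 6.84, 6.83, 6.52 and 6.73 in control, again without overlap (-0.57 ± 0.09, adjusted p = 9.93e-05 in limma).

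Within each dimer the partners changed unequally. The difference of PSMG1 minus PSMG2 on the same array averaged -4.12 ± 0.33 with doxycycline and -2.06 ± 0.35 in control (SD, n = 5), a shift of -2.06 ± 0.21 (SE). For PSMG3 minus PSMG4 it averaged 0.60 ± 0.21 and 1.18 ± 0.05, a shift of -0.58 ± 0.10. Both shifts had an exact two-sided permutation p of 0.00794, the smallest that 5 against 5 arrays can give, and the same value adjusted over these 2 pairs. The pairs were chosen after their values were seen, so this p adds no evidence for unequal change beyond the values themselves.

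POMP, which brings beta subunits onto the alpha ring and joins half-proteasomes, read 8.50, 8.53, 8.83, 8.42 and 8.60 with doxycycline and 8.71, 8.90, 8.96, 8.75 and 8.77 in control. Doxycycline array 3 lay within the control range. The fall of 0.24 ± 0.09 log2 units was called at an adjusted p of 0.0492 in limma, and was lost under 11 of 17 alternatives, among them leaving out doxycycline array 1, 2, 4 or 5 or control array 2, 3, 4 or 5 (adjusted p of 0.0551 to 0.127 in limma).

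Of the 19S base chaperones among the 42 genes 1 rose and the others did not pass, where 20.9% of all probe sets were called higher. PSMD5, which holds ATPase subunits during base assembly, read 7.46, 7.41, 7.49, 7.29 and 7.46 with doxycycline, against 6.99, 7.36, 7.04, 7.21 and 7.02 in control. It was higher, though doxycycline array 4 lay below control array 2 (0.30 ± 0.09, adjusted p = 0.0159 in limma). PSMD10, also known as the oncoprotein gankyrin, and PSMD9 did not pass, with log2 fold changes of 0.11 ± 0.07 (95% interval -0.05 to 0.27) and -0.07 ± 0.10 (-0.28 to 0.14). PAAF1, a base chaperone outside the symbol rule, fell (-0.53 ± 0.08, adjusted p = 7.25e-05 in limma).

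**Figure D3:**
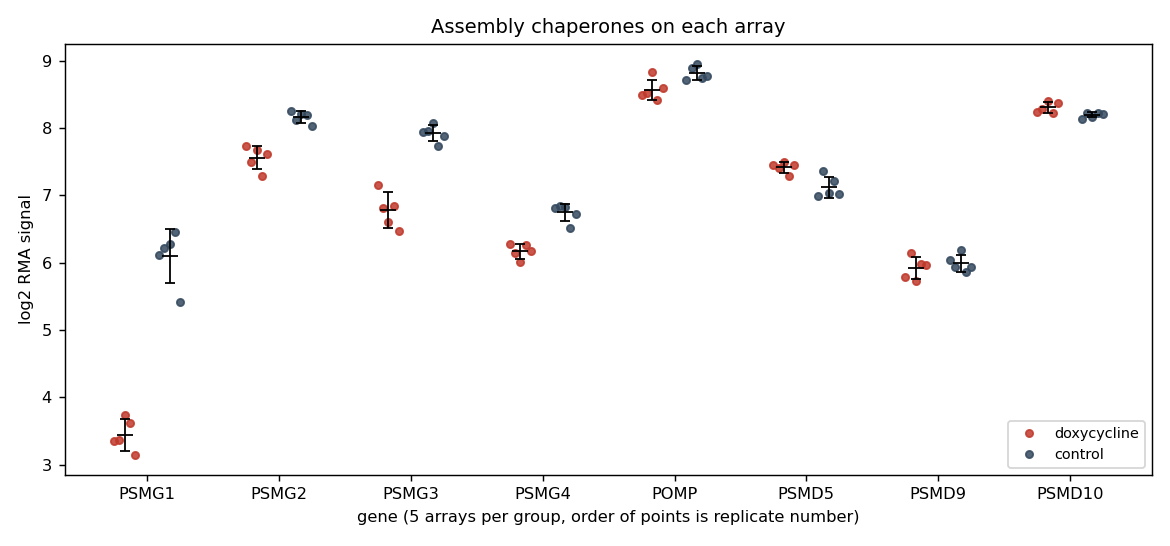
Log2 RMA signal (vertical axis) of the 8 assembly chaperones on each array, doxycycline left and control right of each tick, with bars for the mean and SD of 5 arrays. PSMG1, PSMG2, PSMG3 and PSMG4 are separated between the groups, with PSMG1 means of 3.44 and 6.10, and PSMD5 is shifted upward with doxycycline.

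In the 20S core 6 of 16 genes fell (37.5%), against 17.2% of all probe sets and 25.2% of bright ones. The 16 include PSMA8 and PSMB11, which are dim and did not pass. None of the 16 rose, against 20.9% of all probe sets, with no gene higher at an unadjusted p under 0.05 either. Of the 8 alpha genes, which form the outer rings and the gate of the barrel, 4 fell (50%). PSMA7 read 9.03, 8.61, 9.05, 8.68 and 8.93 with doxycycline, against 9.68, 9.51, 9.61, 9.59 and 9.39 in control, with every doxycycline array below every control array (-0.70 ± 0.10, adjusted p = 5.96e-05 in limma). PSMA6 read 8.86, 8.84, 8.61, 8.66 and 8.63 with doxycycline, against 9.17, 8.99, 9.12, 9.06 and 9.09 in control (-0.36 ± 0.08, adjusted p = 0.00221 in limma). The gap between its groups was narrow, with doxycycline array 1 at 8.86 next to control array 2 at 8.99. PSMA4 read 7.93, 8.32, 8.37, 8.32 and 8.11 with doxycycline, against 8.63, 8.61, 8.57, 8.47 and 8.54 in control, and doxycycline array 1 was the lowest value (-0.36 ± 0.09, adjusted p = 0.00734 in limma). PSMA1 fell by 0.32 ± 0.09 log2 units (adjusted p = 0.0136 in limma).

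The remaining alpha genes did not pass. Of those above the median signal PSMA3 lay nearest to 0, with 6.82, 6.46, 6.76, 6.72 and 6.75 units on doxycycline arrays and 6.78, 6.71, 6.68, 6.80 and 6.56 on control arrays. Its log2 fold change was -0.01 ± 0.09 with a 95% interval of -0.19 to 0.18, and its sign turned under 4 alternatives. PSMA5 and PSMA2 stood at -0.19 ± 0.11 and -0.10 ± 0.10.

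The beta ring carries the protease sites, and 2 of its 8 genes (25%) fell, against 17.2% of all probe sets and 25.2% of bright ones. The 8 include the dim PSMB11, so the bright share is not an exact background for them. PSMB6, which cuts after acidic residues, read 7.81, 7.70, 7.55, 7.37 and 7.86 with doxycycline, against 8.44, 8.26, 8.28, 8.08 and 8.12 in control (-0.58 ± 0.11, adjusted p = 4.62e-04 in limma). PSMB7, which cuts after basic residues, read 9.76, 10.16, 10.04, 9.91 and 10.07 with doxycycline, against 10.47, 10.43, 10.56, 10.30 and 10.38 in control (-0.44 ± 0.09, adjusted p = 0.00123 in limma). Both were lower on all 5 doxycycline arrays. PSMB5, which cuts after hydrophobic residues and is the main target of the drug bortezomib, read 9.25, 8.90, 9.05, 8.81 and 8.99 with doxycycline, against 9.09, 8.90, 9.07, 8.86 and 8.83 in control. Its groups overlapped, and the log2 fold change of 0.05 ± 0.10 did not pass (95% interval -0.15 to 0.26).

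Among the beta subunits without a protease site none was called (adjusted p of 0.0512 to 0.301 in limma, with PSMB1 and PSMB3 under 0.05 unadjusted). PSMB3 missed at -0.24 ± 0.09 (adjusted p = 0.0512), and it was called under 7 of 17 alternatives, such as without doxycycline array 1 (adjusted p = 0.00919) or control array 5 (adjusted p = 0.0343). PSMB1 had a log2 fold change of -0.21 ± 0.10 and was called without doxycycline array 3 (adjusted p = 0.0112), an array at 8.68 units where the others of the group read 8.22 to 8.27. PSMB2 and PSMB4 stood at -0.11 ± 0.08 and 0.13 ± 0.09.

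The immunoproteasome subunits PSMB9, PSMB10 and PSMB8, which interferon induces and which replace PSMB6, PSMB7 and PSMB5 in newly built particles, were not called lower. PSMB9 rose (0.35 ± 0.10, adjusted p = 0.0131 in limma), while PSMB10 (0.19 ± 0.11) and PSMB8 (-0.06 ± 0.10) did not pass, nor did PSME1, a subunit of the interferon-induced activator PA28 (0.10 ± 0.11). The difference of PSMB9 minus PSMB6 on the same array averaged 0.06 ± 0.11 with doxycycline and -0.87 ± 0.08 in control (SD, n = 5), a shift of 0.93 ± 0.06 (SE). For PSMB10 minus PSMB7 the means were -3.70 ± 0.19 and -4.33 ± 0.19, a shift of 0.63 ± 0.12. Each shift had an exact two-sided permutation p of 0.00794, the smallest possible, and 0.0119 after adjustment over 3 pairs, and all 5 doxycycline arrays lay above all 5 control arrays. PSMB8 minus PSMB5 averaged -1.44 ± 0.15 and -1.33 ± 0.14, a shift of -0.11 ± 0.09 with an adjusted exact permutation p of 0.278. Differences between probe sets show unequal change, not the amounts of the 2 RNAs.

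**Figure D4:**
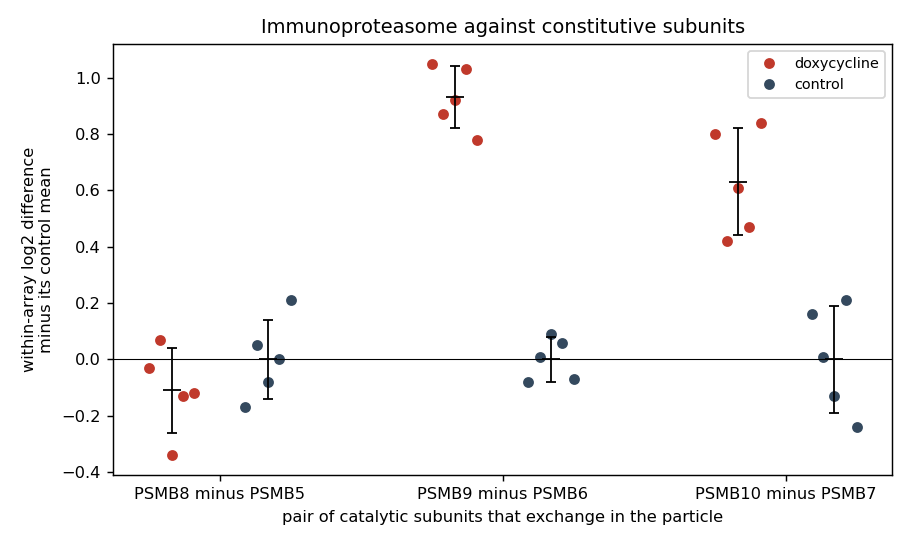
Difference in log2 signal between an immunoproteasome subunit and the constitutive subunit it replaces, on each array, minus the control mean of that difference (vertical axis), doxycycline left and control right, with bars for the mean and SD of 5 arrays. The groups are separate for PSMB9 minus PSMB6 (shift 0.93) and PSMB10 minus PSMB7 (shift 0.63) and overlap for PSMB8 minus PSMB5 (shift -0.11).

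All 15 subunits of the 19S caps that the symbol rule takes had a negative log2 fold change, as had 8069 of all 18569 probe sets. Of the 15, 10 fell (66.7%), against 17.2% of all probe sets and 25.2% of those at or above the median signal. SEM1, a small lid subunit outside the rule, was higher at a dim signal. It averaged 4.40 ± 0.26 units with doxycycline and 3.89 ± 0.10 in control (SD, n = 5), a log2 fold change of 0.52 ± 0.12 (adjusted p = 0.00226 in limma). The base holds a ring of ATPases that unfold substrates and push them into the barrel. PSMC3, one of these ATPases, read 7.26, 7.39, 7.41, 7.37 and 7.21 with doxycycline, against 8.10, 7.96, 8.17, 8.06 and 8.06 in control. Its replicates were tight and the groups lay far apart (-0.74 ± 0.08, adjusted p = 1.96e-06 in limma). PSMC1 read 9.13, 9.05, 9.07, 9.13 and 8.97 with doxycycline, against 9.45, 9.27, 9.34, 9.40 and 9.52 in control, without overlap (-0.33 ± 0.08, adjusted p = 0.00357 in limma), and RefSeq names 13 pseudogenes after it whose share in the signal was not tested. PSMC4 fell by 0.35 ± 0.09 log2 units although doxycycline array 1, at 9.70, reached the control range (adjusted p = 0.0075 in limma). PSMC2 (-0.18 ± 0.08) and PSMC6 (-0.21 ± 0.11) did not pass. PSMC2 had an unadjusted p of 0.0401 in limma and was called under 3 of 17 alternatives (lowest adjusted p = 0.0235).

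Of the base subunits that are not ATPases 3 of 4 fell (75%), against 17.2% of all probe sets and 25.2% of bright ones. The scaffold subunits PSMD1 (-0.35 ± 0.09, adjusted p = 0.00774 in limma) and PSMD2, which also binds ubiquitin (-0.30 ± 0.09, adjusted p = 0.015 in limma), were lower with 1 doxycycline array each in the control range. PSMD4, a ubiquitin receptor, read 10.19, 10.33, 10.06, 10.12 and 10.01 with doxycycline, against 10.34, 10.37, 10.45, 10.39 and 10.42 in control. The groups met at 10.33 and 10.34 units, and the call (-0.25 ± 0.08, adjusted p = 0.0217 in limma) was lost without doxycycline array 3 or 5 or control array 3 (adjusted p of 0.0567, 0.0602 and 0.0547). The other ubiquitin receptor, ADRM1, did not pass (-0.05 ± 0.08, 95% interval -0.22 to 0.12).

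The lid contains the enzyme that removes the ubiquitin chain. That enzyme, PSMD14, read 7.88, 7.88, 8.09, 8.11 and 7.92 with doxycycline, against 8.68, 8.62, 8.84, 8.74 and 8.54 in control. It was the largest fall of the lid, with the groups well apart (-0.71 ± 0.09, adjusted p = 9.78e-06 in limma). PSMD8 read 10.21, 10.16, 10.21, 9.93 and 10.20 with doxycycline, against 10.67, 10.68, 10.64, 10.53 and 10.58 in control (-0.48 ± 0.08, adjusted p = 2.28e-04 in limma). PSMD3 read 9.72, 9.69, 9.79, 9.74 and 9.58 with doxycycline, against 9.90, 9.98, 9.85, 9.94 and 10.03 in control, which left a narrow gap between groups (-0.24 ± 0.08, adjusted p = 0.0213 in limma). This call was lost without doxycycline array 5 or control array 5 (adjusted p of 0.0593 and 0.0505). PSMD12 (-0.23 ± 0.08, adjusted p = 0.0292 in limma) lost its call without doxycycline array 1 or 2 or control array 1, 3 or 4 (adjusted p of 0.0528 to 0.0707). PSMD6 (-0.16 ± 0.09) and PSMD11 (-0.17 ± 0.08) did not pass, and PSMD11 was called without doxycycline array 1 (adjusted p = 0.0444), as was PSMC6 (adjusted p = 0.0347).

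Regulators that bind the ends of the core changed in both directions. PSME4, also called PA200, is a nuclear activator that promotes degradation of acetylated histones. It read 8.10, 8.20, 8.34, 8.37 and 8.24 with doxycycline, against 7.78, 7.74, 7.75, 7.59 and 7.92 in control, the only one of the 42 genes with every doxycycline array above every control array, against 14.9% of all probe sets (0.50 ± 0.09, adjusted p = 2.76e-04 in limma). PSME3, the nuclear PA28 gamma activator, read 9.13, 9.16, 9.19, 9.13 and 9.03 with doxycycline, against 9.42, 9.45, 9.37, 9.48 and 9.42 in control (-0.30 ± 0.07, adjusted p = 0.00371 in limma). PSMF1, known as PI31, which inhibits the isolated core, read 8.66, 8.90, 8.76, 8.77 and 8.86 with doxycycline, against 9.18, 9.29, 9.10, 9.35 and 9.12 in control (-0.42 ± 0.08, adjusted p = 7.88e-04 in limma). Both were lower without overlap.

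**Figure D5:**
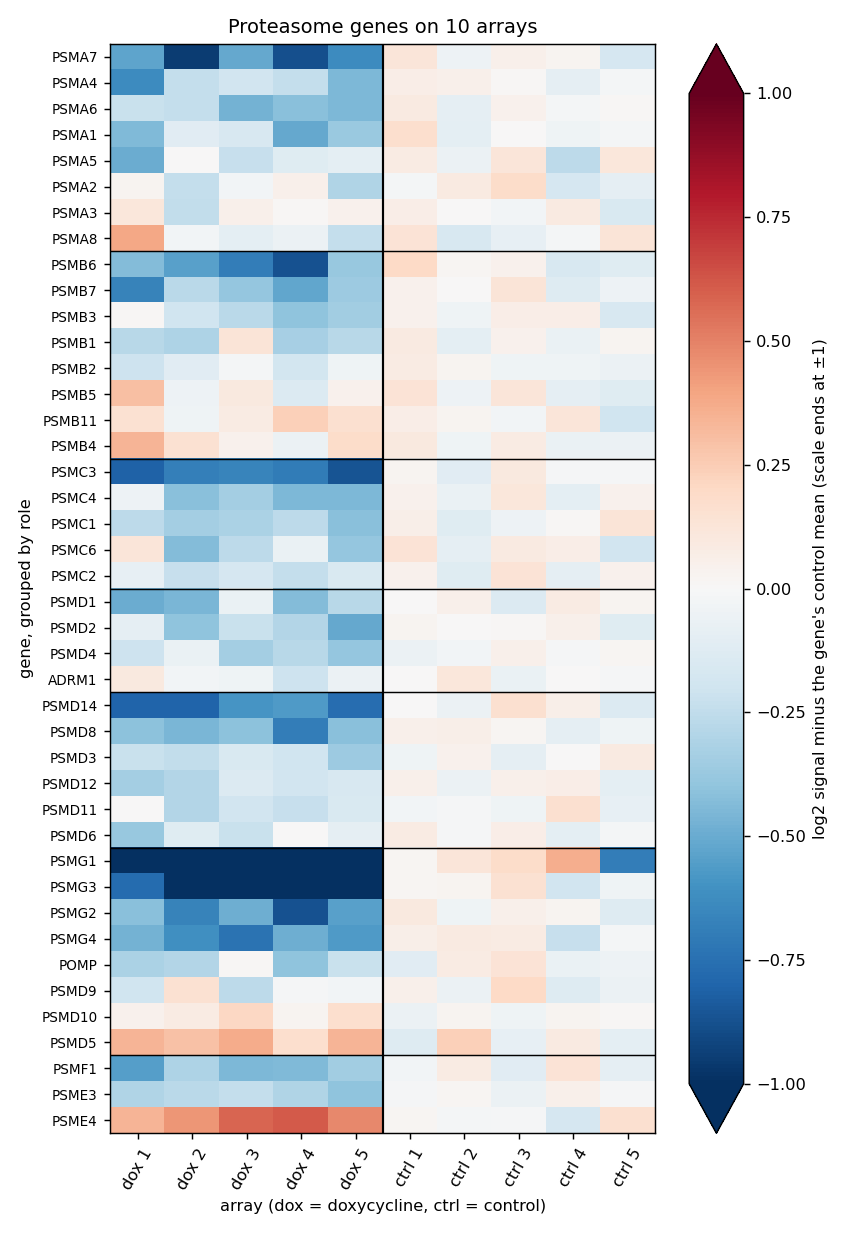
Log2 signal of each of the 42 genes (rows, grouped by role in the order alpha ring, beta ring, base ATPases, other base subunits, lid, chaperones, regulators) minus the gene's control mean on each array (columns, doxycycline left, control right). Blue is below and red above the control mean, with the colour scale ending at 1 unit. Most rows are blue on all doxycycline arrays, and PSMD5, PSME4 and, more faintly, PSMD10 are red on all of them.

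Array by array, the median of the 42 genes relative to their control means was -0.24, -0.26, -0.22, -0.27 and -0.35 on doxycycline arrays 1 to 5, against 0.05, -0.01, 0.04, -0.01 and -0.04 on control arrays 1 to 5. Between 30 and 37 of the 42 genes were below their control mean on each doxycycline array, against 11 to 30 on each control array, with 30 on control array 5. Doxycycline array 1, the array with the lowest weight, had 30. Without it 24 genes fell and 2 rose.

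The NFE2L1 list holds the factor that raises proteasome gene transcription, its processing enzymes and its partners. Of its 12 genes, DDI2 and MAFK were not analysed here. In it 3 of 10 rose (30%) and 1 fell (10%), against 20.9% and 17.2% of the whole array, so that neither count stands far from the background. The median log2 fold change was 0.06. NFE2L1 itself (-0.11 ± 0.08) did not pass, whereas NGLY1, which trims sugars from NFE2L1 during its activation, fell (-0.39 ± 0.09, adjusted p = 0.00219 in limma). BACH1, a repressor at antioxidant response elements (0.97 ± 0.09, adjusted p = 6.33e-07 in limma), NFE2L2, the oxidative stress factor that binds the same element (0.38 ± 0.07, adjusted p = 8.36e-04 in limma), and the ubiquitin ligase SYVN1 (0.36 ± 0.10, adjusted p = 0.00884 in limma) rose. VCP, the ATPase p97 that pulls substrates from membranes and complexes, missed the threshold (-0.23 ± 0.10, unadjusted p = 0.0273 and adjusted p = 0.0675 in limma). SEL1L (-0.03 ± 0.10), AKIRIN2, which carries proteasomes into the nucleus (0.14 ± 0.12), MAFF (0.22 ± 0.14) and MAFG (-0.17 ± 0.11) did not pass.

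Among 16 proteasome-associated factors 3 fell (18.8%) and 2 rose (12.5%), shares near or under those of the whole array (17.2% and 20.9%), with a median of -0.06. UCHL5, a deubiquitinase that docks on ADRM1, fell (-0.69 ± 0.10, adjusted p = 3.19e-05 in limma), and the other docked deubiquitinase, USP14, did not pass (-0.04 ± 0.08). The genes that rose were SEM1 and ZFAND5. ZFAND5, which stimulates the 26S particle, had a log2 fold change of 0.36 ± 0.09. The ubiquitin and E1 enzyme list had 4 measured genes and 0 calls, with adjusted p values of 0.0516 to 0.889 in limma. UBA1, a ubiquitin-activating enzyme with a log2 fold change of 0.22 ± 0.08, was the only one under 0.05 before adjustment.

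Other parts of protein quality control were read beside the proteasome. Of 9 cofactors of p97 3 fell (33.3%), a share not far from the 25.2% of bright probe sets called lower. They were FAF1 (-0.77 ± 0.07), UFD1 (-0.36 ± 0.08) and UBXN1 (-0.35 ± 0.10), and the median over the 9 was 0.02. In the COP9 signalosome, whose subunits are related to the proteasome lid, 2 of 10 fell (20%), a share near the 17.2% of the whole array. They were COPS9 (-0.69 ± 0.14) and COPS3 (-0.38 ± 0.08), with a median of -0.16 over the 10. All 10 had a negative log2 fold change, as had the 15 cap subunits, so this sign is not particular to the caps. COPS7A and COPS6 were under 0.05 before adjustment (p of 0.0261 and 0.0373 in limma). In the TRiC chaperonin, which folds actin and tubulin, 3 of 7 fell (42.9%), against 17.2% of all probe sets and 25.2% of bright ones. They were CCT5 (-0.53 ± 0.08), CCT2 (-0.50 ± 0.08) and CCT4 (-0.38 ± 0.09). The median over the 7 was -0.22, with 6 of them below 0. The medians of TRiC and of the proteasome genes (-0.24) were close, and the difference between the lists was not tested.

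Of the 4 symbols that share only letters 1 fell and 1 rose. PSMC3IP, a recombination protein that helps pair homologous DNA and takes its name from binding PSMC3, read 4.74, 4.79, 5.04, 4.92 and 4.77 with doxycycline, against 6.28, 6.30, 6.33, 6.35 and 6.32 in control, a clear separation (-1.47 ± 0.08, adjusted p = 2.42e-09 in limma). The RNA PSMA3-AS1 rose (0.42 ± 0.10, adjusted p = 0.00318 in limma). PSMB8-AS1 (0.31 ± 0.13, adjusted p = 0.0706) and PSMG3-AS1 (-0.31 ± 0.13, adjusted p = 0.0694) missed the threshold in limma, and PSMB8-AS1 was called without doxycycline array 1 or control array 1 (adjusted p of 0.0115 and 0.015), and PSMG3-AS1 without control array 3 (adjusted p = 0.0133). With these symbols counted, 24 of 46 fell and 3 rose.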

How the data were processed

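Deposited values were log2 expression values for 18569 probe sets on 10 arrays, made by the authors with RMA, per the submitters' processing notes; no version is given in the sources used here. RMA equalises the arrays, so a change in total RNA per cell is not seen, and fold changes of dim probe sets are compressed. Gene symbols came from the platform annotation (17511 probe sets with 1 symbol, 0 with several, 1058 unnamed). RefSeq (GRCh38.p14) names 43 pseudogenes after 20 of the 42 genes, 13 of them after PSMC1; how far these share hybridisation was not tested.

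The limma package (3.58.1, R 4.3.3) compared the groups through lmFit and eBayes, group as the only term, two-sided, with Benjamini-Hochberg adjustment over all probe sets. Differences within an array used an exact permutation test over 252 arrangements (scipy 1.17.1). The model was tested on simulated data first. Members and lists were chosen with earlier results of these data known, so no list was tested. Named genes were at most 3 called, non-overlapping genes per role by size of change, those nearest 0 or against the majority, all of the immunoproteasome and NFE2L1 lists, and at most 4 called genes of each other list; PSMG4 and POMP, PSMB5, UBA1, USP14 and PSMC3IP are shown in addition, chosen after their values were seen, and the other members to account for each. Alternatives were 2 filters on dim probe sets, median centring, a second quantile normalization, a trended robust fit, array weights, the replicate number as a block, and each array left out. Same-numbered arrays did not deviate together (correlations of deviations from group means of -0.437 to -0.00746), so the numbers were not taken as pairs.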

Additional observations from a re-analysis of the deposited data

Results flagged for a closer look

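Of 92 sets of 5 arrays (46 symbols in 2 groups), 6 held 1 array that stood far from the other 4; about 1 in 20 such sets is expected to do so by chance. PSMA3 read 6.46 log2 units on doxycycline array 2, where the others of the group read 6.72 to 6.82. PSMB1 read 8.68 on doxycycline array 3, against 8.22 to 8.27 on the others. PSMD8 read 9.93 on doxycycline array 4, against 10.16 to 10.21. PSMD2 read 7.71 on control array 5, against 7.83 to 7.88, and PSMD11 read 10.18 on control array 4, against 9.94 to 10.01. PSMB8-AS1 read 4.81 on control array 1, against 4.26 to 4.38. The falls of PSMD8 and PSMD2 were called under all 17 alternatives, with adjusted p values of at most 0.00138 and 0.0439 in limma, and the results for PSMB1 and PSMB8-AS1 without their outlying arrays were called (adjusted p of 0.0112 and 0.0150 in limma).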

How the results depend on the processing

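Under 17 alternatives the number of proteasome genes that fell was 19 to 27 and the number that rose was 2 each time; leaving out 1 array gave 20 to 24 that fell, and the median log2 fold change stayed between -0.28 and -0.21. Of the 25 called genes 21 were called under every alternative that kept them, and PSMD3, PSMD4, PSMD12 and POMP lost the call under at least 1. PSMG1 was left out by the filter at the median signal. Signs turned only in genes near 0: PSMA3 with array medians subtracted (0.03), without doxycycline array 2 (0.05) or control array 1 (0.01) or 4 (0.02); PSMA8 with array medians subtracted (0.02), without doxycycline array 3 (0.01), 4 (0.00) or 5 (0.05) or control array 1 (0.02) or 5 (0.02); and PSMB5 without doxycycline array 1 (-0.01). Leaving out 1 array gave -0.04 to 0.05 for PSMA3, -0.11 to 0.05 for PSMA8 and -0.01 to 0.10 for PSMB5. The median over all probe sets was 0.08 with array medians subtracted. Array medians were 5.04 to 5.10 in control and 5.02 to 5.05 with doxycycline, so subtracting them raised every fold change by the same small amount. After a second quantile normalization the median over all probe sets was 0.02, and the cause of that small move was not tested. With the replicate number as a block 19 genes fell (of all probe sets, 2977 fell and 3499 rose) and PSMD3, PSMD4, PSMD12 and POMP were lost (adjusted p of 0.0686, 0.0594, 0.0697 and 0.0507 in limma). Paired by number, PSMB9 minus PSMB6 (0.93) and PSMB10 minus PSMB7 (0.63) had an adjusted p of 0.0938 each, in an exact sign-flip test that cannot go below 0.0625 with 5 pairs, so that its construction sets this loss. Arrays limit the precision: standard errors of the 42 genes were 0.07 to 0.17 log2 units.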
